A study of Mus musculus with 9 samples.

Results

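The replication-dependent histone genes were taken as every gene whose name starts with Hist1h, Hist2h, Hist3h or Hist4h. Of the 20035 gene names that the deposited annotation attached to peaks, 37 met this rule, and they were attached to 262 of 253457 peaks in 9 libraries. Because an annotation of peaks can only name genes that lie next to one, the same rule was also applied to GENCODE M21, where 67 of 21938 protein-coding genes met it. These 67 are the histone genes counted below. Of them, 54 were Hist1 genes on chromosome 13, parted by more than 500 kb into a proximal cluster of 23 and a distal cluster of 31, 10 were Hist2 genes on chromosome 3, 2 were Hist3 genes on chromosome 11 and 1, Hist4h4, lay on chromosome 6. By the protein they encode, 18 were H2A, 18 H2B, 13 H4, 12 H3 and 6 H1 genes.

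Nucleosomes are built from H2A, H2B, H3 and H4, and H1 binds the linker DNA between them. The replication-dependent genes supply these proteins while DNA is copied. They occur in many near-identical copies, lack introns in their classical form, and end their mRNA in a stem-loop instead of a poly(A) tail, whereas replication-independent variants such as H3f3b are made through the whole cell cycle.

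Omni-ATAC-seq, in which a transposase inserts adapters into accessible DNA, had been run on nuclei of purified brain endothelial cells (ECs) from mice on the C57BL/6J background. Of the 9 libraries, 4 were WT Cre (2 young and 2 old) and 5 were EC-K4KO (3 young and 2 old). EC-K4KO animals carried floxed Klf4 together with VE-cadherin Cre, which is active in ECs of every organ, whereas WT Cre animals carried VE-cadherin Cre without the floxed alleles, and both received tamoxifen. The labels give age only as young or old. Library names share 1 prefix within each age, so age and whatever that prefix marks, which is not stated, cannot be told apart. The paper calls its ATAC-seq replicates biological. Nothing in the labels says that libraries came from separate animals, so the spread below may be partly technical. The deposited values are peaks called in each library alone, with no read counts, so the depth of the libraries is unknown.

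The lists held 6157 and 9598 peaks in young WT Cre, 23848, 25309 and 27992 in young EC-K4KO, 43893 and 32555 in old WT Cre, and 45026 and 39079 in old EC-K4KO. The length of the list therefore moved with the groups, and its part in any gain of peaks between them was not tested. Of 10 endothelial marker genes, 5 had a peak over a transcription start site (TSS) in all 9 libraries, and of 8 microglial markers none had one in any library. Between 0 and 4 of 8 markers of mural cells, astrocytes, oligodendrocytes and neurons had one, depending on the library. A peak over the Klf4 TSS was present in 9 of 9 libraries, which checks nothing about the deletion, since the deleted exons are not given in the sources used here.

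Because the sequences are what unites these genes, they are shown before the peaks. The stem-loop was searched in the 150 bases after the coding end on the strand of the gene. The histone stem-loop consensus was met exactly by 65 of the 67 histone genes and by 2 other genes, H2afx and H2bfm, among 21735 protein-coding genes with a coding end, or 0.308% of them. Hist2h2be was the 1 histone gene with no match within 1 mismatch. The 3 most common forms, written as DNA with the 6 bases of each side of the stem in capitals, were found in 41, 9 and 8 genes.
stem-loop form 1: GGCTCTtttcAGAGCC
stem-loop form 2: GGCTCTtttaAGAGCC
stem-loop form 3: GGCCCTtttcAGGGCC

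Promoters of 61 histone genes were matched in RefSeq (GRCm38.p6, from 250 bases before to 50 after the start) and searched on both strands for 5 motifs, with the share of all 32851 RefSeq promoters of the same length as the comparison. CCAAT, bound by NF-Y, was found in 85.2% of histone promoters and 37.4% of all promoters. TATAAA was found in 57.4% against 13.6%. ATTTGCAT, the octamer bound by POU factors, was found in 21.3% against 1.74%, in 7 of 17 H2A and 6 of 16 H2B promoters and in no H1, H3 or H4 promoter. GGTCCG, the core of the H4 element bound by Hinfp, was also found in 21.3%, against 8.25% of all promoters, and 11 of its 13 histone promoters were those of H4 genes, of which 12 were matched. GGGNGTGG, a KLF-type motif, was found in 9.84% against 17.6%. The motifs can share letters at their ends, and each was counted on its own.

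The promoters below are those of H4 genes that differed in their peaks and of the H2A and H2B pair that shared a peak in every library. They are given 5′ to 3′ on the strand of the gene, as the 150 bases before the RefSeq start, except that Hist1h4b runs from 130 bases before to 20 after it and Hist1h2ac covers 250 bases, which reach the start of Hist1h2bc. Capitals mark the CCAAT box, the TATA box letters TATAAA, the octamer ATTTGCAT and the H4 letters GGTCCG, or the reverse complement of any of these. Hist1h4a (chr13:23761250-23761399, minus strand), Hist1h4c (chr13:23698459-23698608, minus) and Hist1h4d (chr13:23581418-23581567, plus) had a TSS peak in all 9 libraries, Hist1h4b (chr13:23756807-23756956, plus) in the 4 old libraries only, and Hist1h4n (chr13:21832198-21832347, minus) in none. The pair is at chr13:23683960-23684209 (minus).
Hist1h4a: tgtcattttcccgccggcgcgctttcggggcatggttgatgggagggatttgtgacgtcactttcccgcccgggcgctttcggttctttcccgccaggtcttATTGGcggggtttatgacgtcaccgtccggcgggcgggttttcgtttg
Hist1h4c: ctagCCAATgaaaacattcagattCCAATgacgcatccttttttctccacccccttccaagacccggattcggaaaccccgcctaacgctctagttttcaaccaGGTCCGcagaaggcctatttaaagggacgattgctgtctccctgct
Hist1h4d: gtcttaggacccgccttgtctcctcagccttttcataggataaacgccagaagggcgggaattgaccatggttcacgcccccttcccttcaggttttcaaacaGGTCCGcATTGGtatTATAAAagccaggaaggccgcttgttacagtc
Hist1h4b: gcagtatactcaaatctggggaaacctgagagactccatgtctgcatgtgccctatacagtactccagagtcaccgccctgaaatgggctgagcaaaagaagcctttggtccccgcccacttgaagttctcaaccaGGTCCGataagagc
Hist1h4n: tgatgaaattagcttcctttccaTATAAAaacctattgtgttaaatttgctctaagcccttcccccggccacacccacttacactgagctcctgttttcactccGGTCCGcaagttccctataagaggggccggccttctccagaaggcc
Hist1h2ac to Hist1h2bc: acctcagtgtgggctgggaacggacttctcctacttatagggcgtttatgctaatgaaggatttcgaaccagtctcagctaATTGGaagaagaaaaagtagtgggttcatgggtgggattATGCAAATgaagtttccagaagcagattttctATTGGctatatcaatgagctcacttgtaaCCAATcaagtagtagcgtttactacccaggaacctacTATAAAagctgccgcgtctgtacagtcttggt

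GGTCCG began 46 or 47 bases before the RefSeq start in 6 of the 11 H4 promoters that hold it, Hist1h4c, Hist1h4d, Hist1h4f, Hist1h4i, Hist1h4m and Hist1h4n. Those 6 genes had a TSS peak in between 0 and 9 libraries. Hist1h4a, the H4 gene with the strongest peak, was the 1 matched H4 promoter without these letters in its window. The letters in these windows thus did not part the genes with a peak from those without. Of the 27 matched genes with no peak over a RefSeq start in any library, 25 held CCAAT and 15 TATAAA, and of the 8 with a peak there in all libraries, 8 held CCAAT and 4 TATAAA.

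A histone gene was counted as having a TSS peak when a deposited peak covered at least 1 base of a GENCODE TSS of that gene. By this measure 9 and 14 of 67 histone genes had one in young WT Cre, 21, 29 and 28 in young EC-K4KO, 33 and 32 in old WT Cre, and 35 and 33 in old EC-K4KO. The group means were 11.5 ± 3.54 (SD, n = 2), 26.0 ± 4.36 (n = 3), 32.5 ± 0.707 (n = 2) and 34.0 ± 1.41 (n = 2) genes. Young WT Cre lay below every other group without overlap, young EC-K4KO lay below both old groups, and the old groups met at 33 genes. Peaks in fewer nuclei and weaker peaks in all nuclei cannot be told apart in bulk libraries.

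The share of histone genes followed the share of all protein-coding genes. Histone genes stood at 13.4% and 20.9% in young WT Cre, where all genes stood at 16.5% to 24.1%, and at 47.8% to 52.2% in the 4 old libraries, where all genes stood at 46.7% to 51.0%. The 80 cytosolic ribosomal protein genes, another family needed in high amounts, stood higher in each library, from 41.2% in young WT Cre replicate 1 to 93.8% in the old libraries. In all 9 libraries together, 9 histone genes (13.4%) had a TSS peak, against 14.7% of all protein-coding genes and 28 of the 80 ribosomal protein genes. In no library did 31 histone genes (46.3%) have one, against 45.5% of all and 6.25% of ribosomal protein genes.

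**Figure D1:**
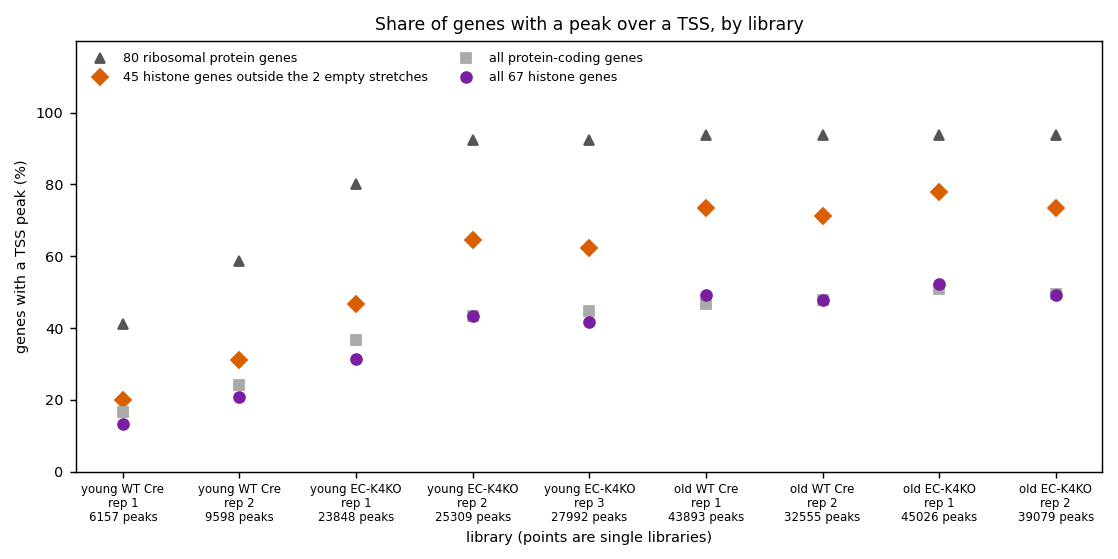
Percent of genes with a peak over a TSS (y axis) in each of 9 libraries (x axis, with the number of peaks in the list), for all 67 histone genes, the 45 outside the 2 empty stretches, all protein-coding genes and 80 ribosomal protein genes; each point is 1 library. All 67 histone genes run close to all protein-coding genes, from 13.4% to 52.2%, and the 45 run from 9 to 35 genes (77.8%). The 45 leave out genes in stretches without a peak, so their share is higher by construction. All protein-coding genes were not restricted in this way, so the 2 shares are not comparable.

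The 31 genes without a TSS peak were not scattered. A stretch of chromosome 13 of 101.4 kb in the proximal Hist1 cluster (mm10, chr13:21750867-21852301) held no peak in any of the 9 libraries and contains 12 histone genes and no other protein-coding gene. These are Hist1h2ak, Hist1h2bn, Hist1h1b, Hist1h3i, Hist1h2an, Hist1h2bp, Hist1h2bq, Hist1h2ao, Hist1h4m, Hist1h4n, Hist1h2ap and Hist1h2br. A stretch of chromosome 3 of 93.9 kb (chr3:96194674-96288573) was likewise without a peak and holds all 10 Hist2 genes, Hist2h2ab, Hist2h2ac, Hist2h2be, Hist2h3c2, Hist2h2aa2, Hist2h2aa1, Hist2h3c1, Hist2h4, Hist2h3b and Hist2h2bb, along with Bola1, a gene of iron-sulfur cluster biology. Together they hold 22 of the 31 genes. By length alone such stretches are not rare in these lists, since 3630 and 4286 of 92473 gaps between peaks of the 9 libraries were at least as long. That count took gaps whatever genes they held, so it does not say how often a gap holds as many genes as these.

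Near-identical copies can make reads map to several places, and reads of low mapping quality had been removed. Of the 31-base words in the 101.4 kb stretch, 54.3% occur more than once in the GRCm38.p6 sequences, against 19.6% in the chromosome 3 stretch. In the 500 bases around the TSS, the repeated share was 100% for Hist1h2bq, Hist1h2ao, Hist1h2ap and Hist1h2br, and 0% for Hist1h1b in the same stretch. In the Hist2 cluster it ran from 3.62% at Hist2h2bb and 7.87% at Hist2h4 to 93.4% at Hist2h3c2, Hist2h3c1 and Hist2h2aa2. Over all histone genes the medians were 31.5% for the 36 with a TSS peak in at least 1 library and 32.8% for the 31 with none, while windows with more repeated than unique words belonged to 2 of the 36 and to 10 of the 31. The median over the 12 genes of the 101.4 kb stretch was 70.3%. Windows mostly repeated in sequence were thus more frequent among the genes without a peak, which also included genes with largely unique windows, and the part of mapping and of any region filter in the empty stretches was not tested.

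**Figure D2:**
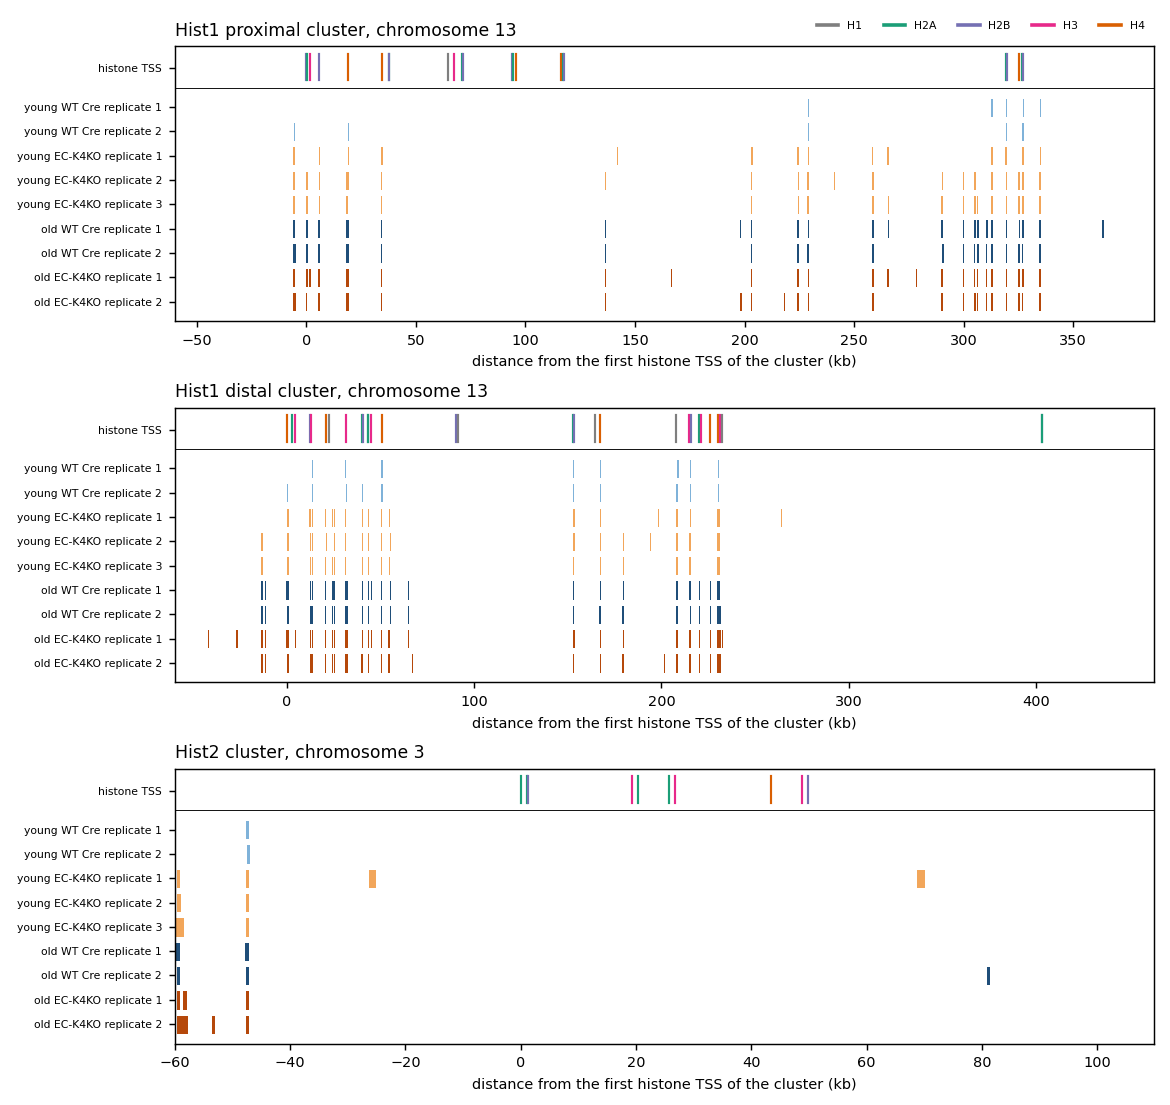
Histone TSSs (top row, coloured by class) and deposited peaks of each library (rows below, drawn at least 0.6 kb wide) along the proximal Hist1, distal Hist1 and Hist2 clusters, with the x axis in kb from the first histone TSS of the cluster. The 101.4 kb stretch of the proximal cluster and the Hist2 cluster hold no peak in any library, as do the 85.26 kb stretch and the part of the 227.8 kb stretch drawn in the distal cluster.

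The other 9 genes without a TSS peak lay in the distal Hist1 cluster. Hist1h2ba and Hist1h2aa, which encode testis histones, lay in a peak-free stretch of 227.8 kb together with Scgn and 4 Slc17a genes, and Hist1h1t, the testis H1, lay in a stretch of 13.1 kb. Hist1h1e, a somatic H1 gene, and Hist1h2be lay in a stretch of 85.26 kb, and Hist1h2af, Hist1h3g, Hist1h1d and Hist1h3b each in a gap of 3.10 to 7.63 kb between peaks. For 2 of them the call depended on the gene model. Hist1h1d had a peak over its RefSeq start, 1770 bp from the GENCODE one, in 5 libraries, 1 young EC-K4KO and all 4 old. Hist1h2be had a peak over a RefSeq start at chr13:23585970, 35154 bp from its GENCODE TSS, in 7 libraries, all but the 2 young WT Cre. With both sets of starts, 29 histone genes had none, and in 56 of the 61 genes with both kinds of start the number of libraries was equal.

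By class, H4 genes had the highest share with a TSS peak in each of the 9 libraries, and H1 genes the lowest in the 4 old libraries. All 4 old libraries had a TSS peak at 10 of 13 H4 genes, 10 of 18 H2B genes, 8 of 18 H2A genes, 2 of 12 H3 genes and 1 of 6 H1 genes. Outside the 2 empty stretches, a restriction chosen after the values were seen, these were 10 of 10 H4, 10 of 12 H2B, 8 of 10 H2A, 2 of 8 H3 and 1 of 5 H1 genes. The H4 genes were Hist1h4a, Hist1h4b, Hist1h4c, Hist1h4d, Hist1h4f, Hist1h4h, Hist1h4i, Hist1h4j, Hist1h4k and Hist4h4. The H3 genes were Hist1h3a and Hist1h3e, and the H1 gene was Hist1h1c, an H1 of somatic cells. In young WT Cre, 3 and 5 H4 genes, 0 and 1 H1 genes, and 1 H3 gene in each library had one. No test was made between classes, because members share promoters and peaks.

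**Figure D3:**
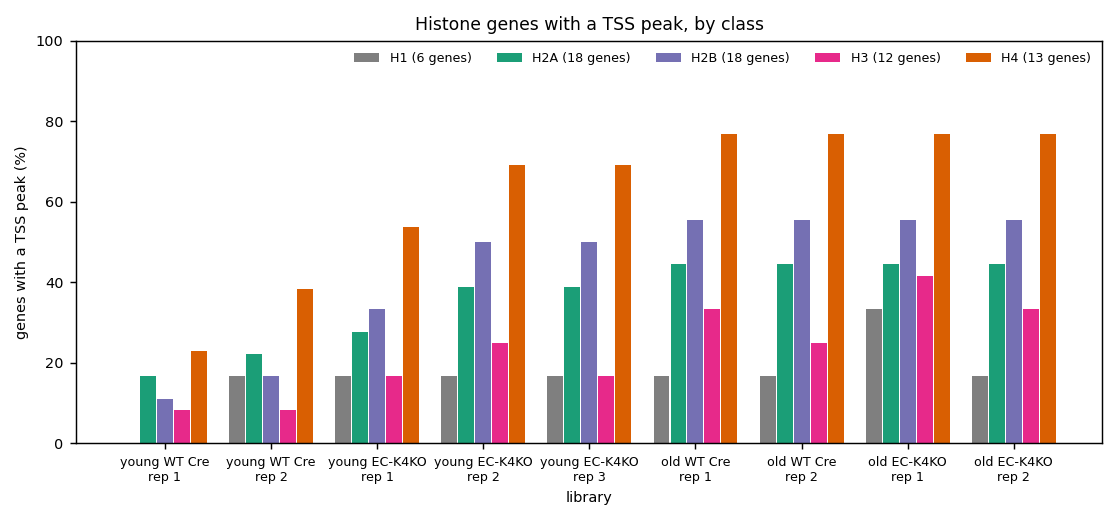
Percent of the histone genes of each class with a TSS peak (y axis, from 0) in each library (x axis); bars are counts over all genes of the class in 1 library, so they carry no error bar. H4 stands highest in all 9 libraries, at 10 of 13 genes in each old library, and H1 is lowest in the 4 old libraries.

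Hist1h1c had a peak over the gene in all 9 libraries, centred 539 to 1052 bp from the authors' TSS, and in all but young WT Cre replicate 1 this peak reached the TSS and was 1143 to 1402 bp wide. Its rank by the deposited -log10 p, where 1 is the strongest peak of a list, was 2847 in young WT Cre replicate 2, 3322, 5391 and 5448 in young EC-K4KO, 3958 and 3546 in old WT Cre, and 4799 and 4612 in old EC-K4KO. Ranks are used because the lists differ in length and in the spread of their p-values. The other H1 gene with a TSS peak, Hist1h1a, had one in old EC-K4KO replicate 1 only, at rank 23252.

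**Figure D4:**
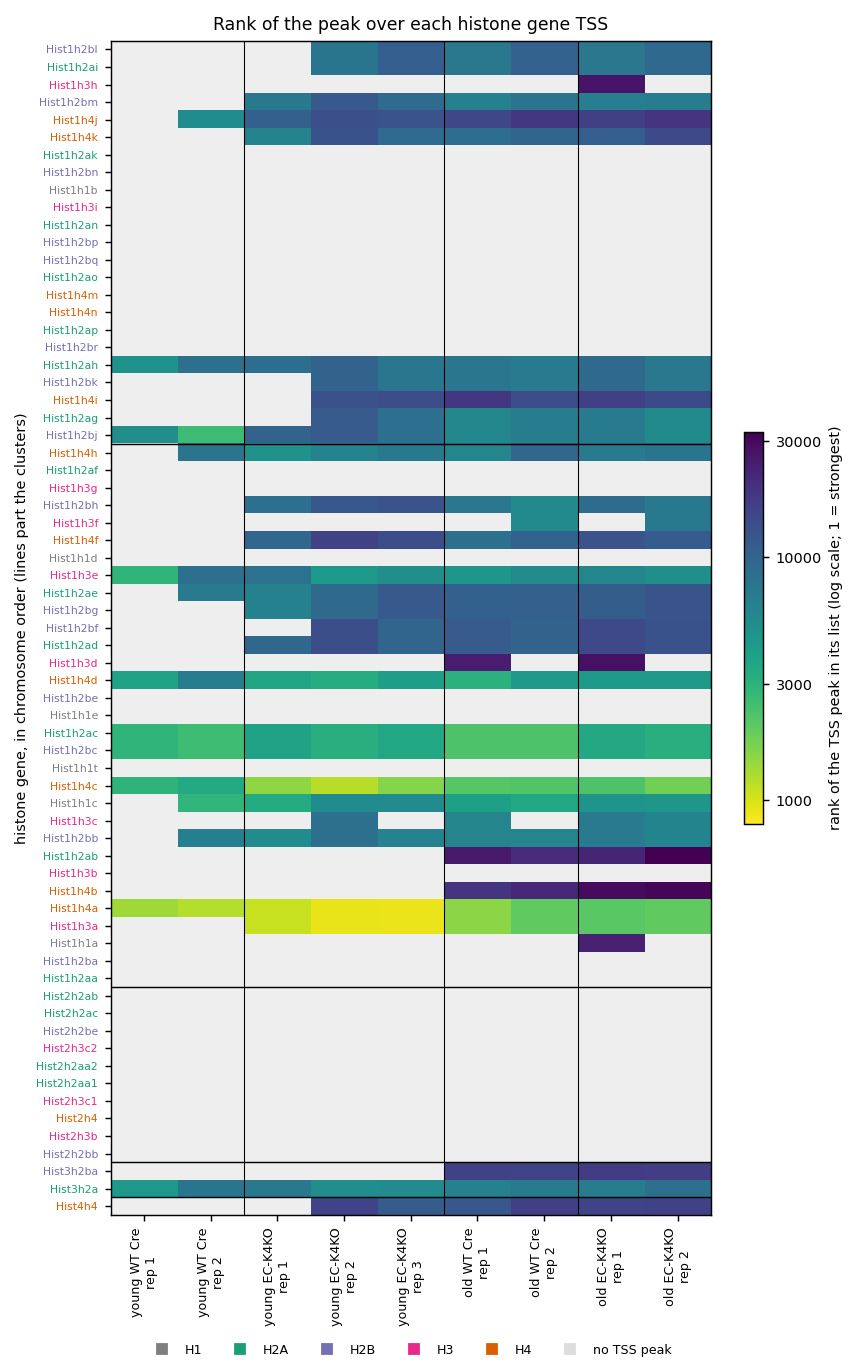
Rank of the strongest peak over the TSS of each of 67 histone genes (rows, in chromosome order, names coloured by class) in each of 9 libraries (columns), on a log colour scale where 1 is the strongest peak; grey marks no TSS peak. The grey blocks are the 12 genes of the 101.4 kb stretch and the 10 Hist2 genes, and the strongest row is Hist1h4a at ranks 888 to 2083.

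The 9 genes with a TSS peak in every library were Hist1h4a, Hist1h4c, Hist1h2ac, Hist1h2bc, Hist1h4d, Hist1h3e, Hist3h2a, Hist1h2bj and Hist1h2ah, in order of their mean rank. Hist1h4a led with ranks 1367 and 1201 in young WT Cre, 1096, 911 and 888 in young EC-K4KO, 1527 and 1967 in old WT Cre, and 2083 and 1973 in old EC-K4KO. Every old library ranked it lower than every young library. Hist1h4c followed with ranks 2948 and 3370 in young WT Cre, 1489, 1193 and 1576 in young EC-K4KO, 2122 and 2193 in old WT Cre, and 2256 and 1767 in old EC-K4KO. The 3 young EC-K4KO libraries ranked it above the other 6.

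Hist1h2ac and Hist1h2bc share 1 divergent promoter and 1 peak, so their values are the same. That peak ranked 2901 and 2547 in young WT Cre, 3834, 3203 and 3609 in young EC-K4KO, 2248 and 2243 in old WT Cre, and 3482 and 3175 in old EC-K4KO. It ranked higher in all 4 WT Cre libraries than in all 5 EC-K4KO libraries. Hist1h4d ranked 3852 and 6807 in young WT Cre, 3619, 3299 and 4150 in young EC-K4KO, 3083 and 4442 in old WT Cre, and 4306 and 4430 in old EC-K4KO, with all groups overlapping except young EC-K4KO and old EC-K4KO.

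Hist1h3e, an H3 gene, ranked 2896 and 8317 in young WT Cre, 8099, 4548 and 5267 in young EC-K4KO, 4661 and 5461 in old WT Cre, and 5989 and 5161 in old EC-K4KO. Its 2 young WT Cre libraries enclosed all other values. Hist3h2a on chromosome 11, whose peak also covers the start of Trim17, ranked 4518 and 7756, then 7328, 5287 and 5507, then 6417 and 7005, then 6802 and 8367 in the same order of libraries. Hist1h2bj ranked 5241 and 2564 in young WT Cre, 10093, 11308 and 8397 in young EC-K4KO, 5960 and 6910 in old WT Cre, and 6997 and 5541 in old EC-K4KO, so young EC-K4KO ranked it below every other library. Hist1h2ah, weakest of the 9, ranked 4867 and 8316, then 8620, 10011 and 7691, then 7592 and 6987, then 9127 and 7447, and only young EC-K4KO and old WT Cre did not overlap.

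**Figure D5:**
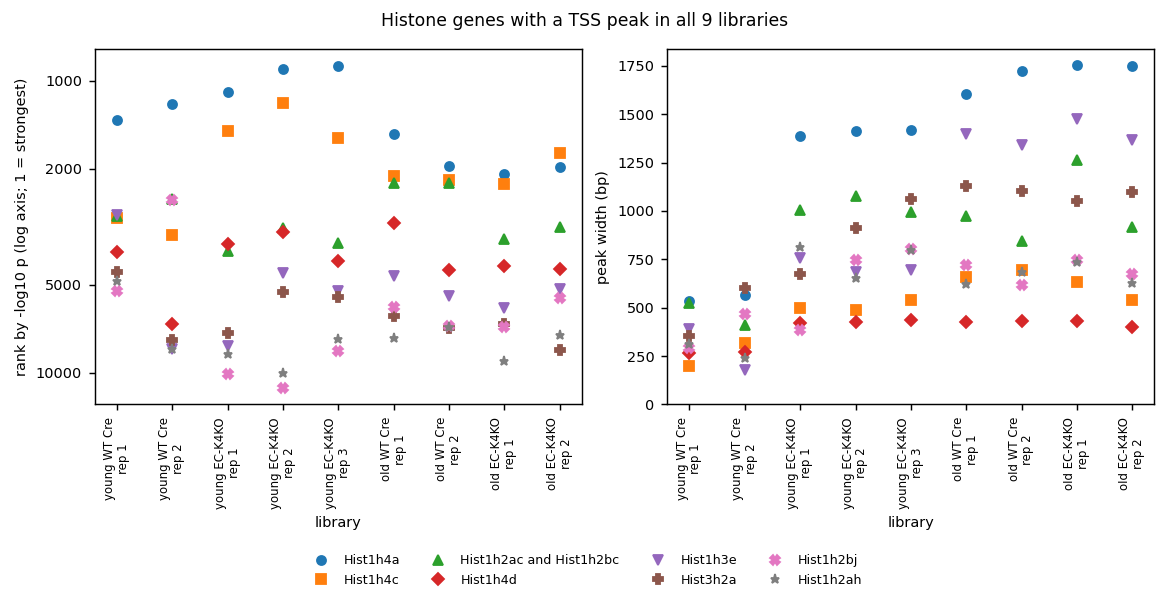
Rank by -log10 p (left, log axis with the strongest at the top) and width in bp (right, from 0) of the TSS peak of the 9 histone genes that had one in all 9 libraries (x axis); Hist1h2ac and Hist1h2bc share a peak and a symbol. The Hist1h4a peak is 536 and 563 bp wide in young WT Cre and 1385 to 1756 bp in the other 7 libraries.

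For 8 of these 9 genes the peak was narrower in both young WT Cre libraries than in the other 7. The exception was Hist1h2bj, at 291 and 465 bp in young WT Cre and 383 bp in young EC-K4KO replicate 1. The Hist1h4a peak was 536 and 563 bp wide in young WT Cre, 1385, 1411 and 1417 bp in young EC-K4KO, 1603 and 1723 bp in old WT Cre, and 1756 and 1751 bp in old EC-K4KO. In the 7 wider cases the same peak also covered the TSS of the neighbouring Hist1h3a, an H3 gene. Medians were taken over genes, so a shared peak counted for each of its genes. Over histone genes with a TSS peak the median width was 351 and 410 bp in young WT Cre, 550, 686 and 771 bp in young EC-K4KO, and 704 to 738 bp in the 4 old libraries. Over all protein-coding genes it was 394 and 427 bp, then 543 to 610 bp, then 619 to 689 bp, so young WT Cre was narrowest there too. Median deposited fold enrichment over histone genes with a TSS peak was 4.87 and 4.29 in young WT Cre and 6.66 to 7.84 in the old libraries, against 5.17 and 5.04, and 6.76 to 8.51, over all genes.

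Of 13 pairs of histone genes on opposite strands with starts within 1000 bp of each other, 12 joined an H2A with an H2B gene. The same peak covered both starts of 7 pairs in at least 1 library, and the other 6 pairs had no TSS peak in any library. Hist1h2ac and Hist1h2bc shared a peak in 9 libraries, Hist1h2ae and Hist1h2bg in 7, and Hist1h2bl and Hist1h2ai, Hist1h2ah and Hist1h2bk, Hist1h2ag and Hist1h2bj, and Hist1h2bf and Hist1h2ad in 6 each. For the Hist1h2ag and Hist1h2bj pair, the peak of both young WT Cre libraries and of young EC-K4KO replicate 1, 291 to 465 bp wide, covered the Hist1h2bj start alone. The peak of the other 6 libraries, 615 to 801 bp wide, covered both. These are GENCODE starts, and the young WT Cre replicate 2 peak also covered the RefSeq start of Hist1h2ag, 5 bp away. The pair of Hist1h2bh with the H3 gene Hist1h3f shared one in 2 libraries only.

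The 4 comparisons of the design were made by presence. A gene was called gained when at least 2 libraries of the first group and none of the second had a TSS peak, and lost in the converse case. No p-value is given, since 2 against 2 libraries and 3 against 2 cannot pass 0.05 in an exact permutation test. The comparisons share libraries, so their counts are not independent of each other.

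Between old and young WT Cre, which asks about age, 17 of 67 histone genes (25.4%) were gained, against 19.4% of all protein-coding genes, and 0 were lost, against 0% of all. The 17 were Hist3h2ba, Hist1h2bl, Hist1h2ai, Hist1h2bm, Hist1h4k, Hist1h2bk, Hist1h4i, Hist1h2ag, Hist1h2bh, Hist1h4f, Hist1h2bg, Hist1h2bf, Hist1h2ad, Hist1h2ab, Hist1h4b, Hist1h3a and Hist4h4. They include 5 H4, 1 H3 and no H1 genes. By its RefSeq start Hist1h2ag would not be among them, since young WT Cre replicate 2 had a peak there. Among the strongest in the old libraries were Hist1h3a at ranks 1527 and 1967, through the widened Hist1h4a peak, Hist1h2ag at 5960 and 6910, Hist1h2bh at 7567 and 5649, Hist1h2bm at 6507 and 7853, and Hist1h2bk at 7592 and 6987.

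Those ranks but for Hist1h3a lie mostly past 6157, the length of the shortest list. When each list was kept to its 6157 strongest peaks, so that lists were of equal length, 2 histone genes were gained, Hist1h3a and Hist1h2bb (2.99%, against 3.29% of all genes), and 0 were lost (0.903% of all genes). Hist1h2bb ranked 6056 and 6068 in old WT Cre and 6651 in young WT Cre replicate 2, just on either side of that limit. Young WT Cre replicate 1 had no peak over its TSS. It had a peak 210 bp wide in the same promoter region, 160 bp from the TSS, at rank 3983. The gain of Hist1h2bb thus rests on the rule that a peak must cover the TSS. The number of gained histone genes thus fell with list length as that of all genes did.

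Between young EC-K4KO and young WT Cre, which asks about Klf4 loss in young animals, 14 histone genes (20.9%) were gained, against 17.0% of all protein-coding genes, and 0 were lost, against 0%. They were Hist1h2bl, Hist1h2ai, Hist1h2bm, Hist1h4k, Hist1h2bk, Hist1h4i, Hist1h2ag, Hist1h2bh, Hist1h4f, Hist1h2bg, Hist1h2bf, Hist1h2ad, Hist1h3a and Hist4h4. Hist1h2ag would again not be among them by its RefSeq start. The strongest in young EC-K4KO were Hist1h3a at ranks 1096, 911 and 888, Hist1h2bk at 10011 and 7691 in replicates 2 and 3, Hist1h2bg at 6441, 9091 and 11553, and Hist1h2ai and Hist1h2bl, which share a peak, at 7753 and 10804 in replicates 2 and 3. In the lists of equal length 1 gene was gained, Hist1h3a (1.49%, against 4.16% of all genes), and 1 was lost, Hist1h2bj (1.49%, against 0.237%). Hist1h2bj kept a TSS peak in all 3 young EC-K4KO libraries, at ranks past the limit of these lists. Its deposited fold overlapped, at 3.88 and 5.86 in young WT Cre against 3.33, 4.85 and 5.96 in young EC-K4KO. Replicate 1 lacked 7 of the 14, and requiring all 3 libraries left 7.

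Between old EC-K4KO and old WT Cre, which asks about Klf4 loss in old animals, 0 histone genes were gained, against 1.26% of all protein-coding genes, and 0 were lost, against 0.0820%. In the lists of equal length both counts were also 0, against 0.442% and 0.501% of all genes. At the level of single libraries Hist1h3h and Hist1h1a had a TSS peak in old EC-K4KO replicate 1 only, at ranks 26666 and 23252 of 45026.

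Between old and young EC-K4KO, 3 histone genes (4.48%) were gained, against 2.91% of all protein-coding genes, and 0 were lost, against 0.155%. The 3 were Hist3h2ba at ranks 16889 and 16822, Hist1h2ab at 22493 and 32821, and Hist1h4b at 29619 and 30529 in old EC-K4KO. Old WT Cre also had all 3, at 15840 and 15343, 25125 and 20631, and 18884 and 21406, and no young library of either genotype had a TSS peak at any of them. Their peaks were weak, with a deposited fold of 5.04 to 7.04 at Hist3h2ba, 2.71 to 3.72 at Hist1h2ab and 2.14 to 2.46 at Hist1h4b. In the lists of equal length 0 were gained, against 0.611% of all genes, and 1 was lost, Hist3h2a (1.49%, against 2.61%), at ranks 6802 and 8367 in old against 7328, 5287 and 5507 in young EC-K4KO.

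Ranks were compared across all 9 libraries with a two-sided exact permutation test per gene, for genotype within age and for age within genotype, with ranks past 6157 and absent peaks set to 6158. Each of the tests has 60 arrangements and cannot give a p below 0.0167. Of 6092 genes tested, 14 were histone genes. After Benjamini-Hochberg adjustment 0 genes (0%) were called for genotype and 0 (0%) for age, with smallest adjusted p-values of 0.43 and 0.136. Without adjustment 431 genes (7.07%) had a p under 0.05 for genotype and 1197 (19.6%) for age, among them 2 and 1 histone genes.

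For genotype these were Hist1h2ac and Hist1h2bc, the 2 genes of 1 peak. Their log2 rank was 0.47 higher, that is further down the lists, in EC-K4KO, in the same direction at both ages (exact permutation p = 0.0167, adjusted p = 0.43). The direction in the young libraries depended on the measure. The deposited fold enrichment of the Hist1h2ac peak was 4.87 and 5.90 in young WT Cre against 5.20, 8.70 and 8.35 in young EC-K4KO, with overlap but a higher mean in EC-K4KO. Its rank as a percent of list length, where low is strong, was 47.1% and 26.5% against 16.1%, 12.7% and 12.9%, without overlap and the other way from the rank itself. In the old libraries the fold overlapped, at 8.69 and 9.69 against 9.49 and 9.34. Hist1h4c had a log2 rank 0.64 lower in EC-K4KO as the mean over both ages (difference -0.64, exact permutation p = 0.05, adjusted p = 0.515), with the young libraries apart and the old ones overlapping. For age it was Hist1h4a, with a log2 rank 0.76 higher in old libraries (exact permutation p = 0.0167, adjusted p = 0.136). The fold of the Hist1h4a peak was 5.50 and 6.0 in young WT Cre against 6.88 and 6.51 in old WT Cre, again the other way, and 6.55, 8.95 and 9.06 in young EC-K4KO against 7.19 and 7.14 in old EC-K4KO. The median difference over the 14 histone genes was -0.0062 for genotype and -0.015 for age, beside -0.061 and -0.017 over all genes tested.

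Peaks could also be named for a histone gene without covering a GENCODE histone TSS. The 262 named peaks merged into 43 regions, of which 27 covered a GENCODE histone TSS and 16 did not. Among the 16 were the regions over the RefSeq starts of Hist1h1d and Hist1h2be described above. Of the 16, 6 were seen in 1 library only, 0 in all 9, and none covered the TSS of another protein-coding gene. The Hist1 clusters also hold tRNA genes, which RNA polymerase III transcribes, and 6 of the 16 regions overlapped a RefSeq tRNA gene, against 0.146% of all 92495 merged regions. This overlap was looked for after the positions of the peaks were seen.

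The region 5467 to 5598 bp from Hist1h2bl (chr13:21710035-21711299) held 2 tRNA genes and had a peak in 8 libraries, all but 1 young WT Cre library. The region 6564 to 6696 bp from Hist1h2ah (chr13:22028756-22029384) held 1 and had a peak in 8, with a best rank of 4716. The region 7734 to 7830 bp from Hist1h2bj (chr13:22050580-22051402) held 1 and had a peak in 8, with a best rank of 3931. Upstream of Hist1h4h, a region at chr13:23517116-23518256 held 3 tRNA genes and had a peak in 6 libraries, none of them young WT Cre. The remaining regions with a tRNA gene were weaker and had a peak in the 4 old libraries only. They were chr13:22026279-22026771, with 1 tRNA gene and a best rank of 15600, and chr13:23519023-23519712, with 2 and 22402. Best ranks of the histone promoters ran from 888 to 26666, so wide a span that falling within it says little.

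A list of 18 other genes tied to histones held 11 for transcription and mRNA processing of histone genes, 6 histone chaperones and Ern1, a kinase of the endoplasmic reticulum stress response, a split made after the values were seen. Of the 11, 6 had a TSS peak in all 9 libraries and 5 in 7 or 8. Of the 6 chaperones, 2 had one in all 9, 3 in 7 or 8, and Chaf1a in 1 library only. Ern1 had one in all 9. Npat, the coactivator of histone transcription at these clusters, ranked 293 to 840, Casp8ap2, which works with it in the histone locus body, 236 to 1008, and Slbp, which binds the stem-loop, 376 to 1499. Hinfp, which binds the H4 element, ranked 459 to 2674. Each of these peaks ranked higher than that of Hist1h4a in at least 6 of 9 libraries.

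Of 12 replication-independent variants, 4 had a TSS peak in all 9 libraries, H2afz at ranks 315 to 1051, H2afv at 44 to 914, H3f3b at 145 to 953 and H3f3a at 4653 to 7854, and 2, H2afx and H1foo, had none. H2afx is the variant gene that also carries the stem-loop. Old WT Cre and young EC-K4KO, each set against young WT Cre, gained 4 of the 12 variants (33.3%) and 8 of 18 proliferation genes (44.4%), against 19.4% and 17.0% of all protein-coding genes, and neither lost any. In the lists of equal length each gained 0 of the variants and 4 of the proliferation genes (22.2%), against 3.29% and 4.16% of all. The shares over all genes include 45.5% with no TSS peak in any library, against 2 of the 12 variants and 0 of the 18 proliferation genes. They are therefore not a like comparison for these lists. Of the 80 ribosomal protein genes, 23 and 21 were gained in the deposited lists. Of the proliferation genes, 6 had a TSS peak in all 9 libraries, among them Pcna at ranks 1125 to 2440 and Mcm4 at 254 to 595, and Mki67 had one in 3 libraries, at ranks 12022 to 14705.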

How the data were processed

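The authors mapped Omni-ATAC-seq reads to mm10 with Bowtie2, removed duplicates and reads of low mapping quality, and called broad peaks with MACS2 in each library alone. Each deposited peak carries a score, a fold enrichment, which is a ratio to the local background, and -log10 p and -log10 q values, all of the authors, averaged over the peak. The annotation that the authors deposited, in the form HOMER writes, gives a gene name, a class and a distance to the TSS. Whether a region filter was applied, and the depth of the libraries, are not given in the sources used here.

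Peaks of 9 libraries were joined to the basic set of GENCODE M21. Rank was the order by -log10 p, and lists of equal length kept the 6157 strongest peaks. Groups came from the labels. Genes tested for rank had a TSS peak among these in at least 2 libraries, the exact permutation test exchanged labels within the other factor, and p-values were adjusted over all 6092 genes at a threshold of 0.05. On simulated data for 6092 genes, a planted log2 shift of 3 had a p under 0.05 in 100% of 100 genes in each comparison, a shift of 1 in 73.0%, and unchanged genes in 3.55% (genotype) and 3.41% (age), with 0 calls after adjustment at either size. Repeated 31-base words were counted on both strands of 65 sequences of GRCm38.p6, the chromosomes with unlocalised and unplaced scaffolds. RefSeq promoters were matched through older symbols for 61 of 67 genes.

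Histone genes were named by their prefix. Per-library values were given for genes with a TSS peak in all 9 libraries, for genes gained or lost (the 5 with the best mean rank where more than 5), and for genes without a peak by name, and other genes came from fixed lists. The members and lists were chosen with earlier results of these data known. Alternatives changed the list length, the ranking, the q-value limit, the TSS, the presence rule and the libraries used. Python 3.11.15, numpy 2.4.6, pandas 2.3.3 and matplotlib 3.10.9 were used.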

Additional observations from a re-analysis of the deposited data

How the results depend on the processing

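The counts of gained histone genes depended on the length of the lists and on how peaks were tied to genes. In lists of equal length by -log10 p, gained histone genes fell to 2 (old against young WT Cre), 1 (young EC-K4KO against young WT Cre) and 0 (old against young EC-K4KO), and 1 was lost in each of the last 2 comparisons. In lists of equal length by fold, gained genes were 2, 1 and 0 and lost genes 2, 1 and 4 in the same order. With the authors' gene names of promoter-TSS peaks, 10 genes were gained and 2 lost in old against young WT Cre, 6 gained in young EC-K4KO against young WT Cre, 1 gained in old EC-K4KO against old WT Cre, and 1 lost in old against young EC-K4KO. With a peak required in every library, 7 were gained in young EC-K4KO against young WT Cre. Lists of equal length keep fewer peaks, and the authors' names give 1 gene per peak. The part of either in these counts was not tested. A q-value limit of 0.01, a 500 bp window, gene 5′ ends and RefSeq starts (added after the data were seen) moved no count by over 1.5 times. Leaving out 1 library gave 17 to 22, 7 to 19, 0 to 2 and 3 to 6 gained in old against young WT Cre, young EC-K4KO against young WT Cre, old EC-K4KO against old WT Cre and old against young EC-K4KO, and 0 lost throughout. Where this left a group with 1 library, a peak in that library alone sufficed, a looser rule than the 2 libraries asked for above. The 7 came without young EC-K4KO replicate 2 or 3, the 1 and the 2 without old WT Cre replicate 1 or old EC-K4KO replicate 2, and the 6 without old EC-K4KO replicate 2.

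The rank tests gave 0 calls under every alternative, and since few genes cannot pass the adjustment with 60 arrangements, this says nothing about stability. Replicate numbers were not shown to pair libraries, as deviations of same-numbered libraries correlated at -0.021 to 0.094. With a replicate block, 0 genes were called in both comparisons, with 16 arrangements, a smallest possible p of 0.0625 and 0 genes under 0.05 before adjustment. Depth is unknown, so an absent peak may be a library too shallow to show it.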
